A study of Mus musculus with 217 samples.

Results

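Endothelial cells (ECs) of the brain, lung and heart were compared with one another 48 hr after lipopolysaccharide (LPS), a component of the bacterial cell wall that sets off systemic inflammation, to describe the genes that told the 3 tissues apart in the inflamed state. The libraries are those labelled 48 hr, which are 18 of the 98 libraries of the series, 6 per tissue. Count files of one tissue, time point and replicate number were summed to 1 library. Replicate 5 of each tissue was left out because 2.11% to 2.51% of its reads lay on genes, under the minimum of 3%, so that replicates 1, 2, 3, 4, 6 and 7 of 21 libraries remained.

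All mice were adult RiboTagEC mice (Cdh5CreERT2/+; Rpl22HA/+) of the strain C57BL/6J. Tamoxifen, 5 mg by gavage on 4 occasions at 4 to 6 weeks of age, switches on a Cre recombinase under the endothelial Cdh5 (VE-cadherin) promoter, which places an HA tag on the ribosomal protein Rpl22. Tagged ribosomes were pulled from homogenized whole tissue with an antibody against HA, and the RNA on them was sequenced, so that RNA of untagged cells enters a library only as background of the pull-down. The 48 hr mice had received 10 mg/kg LPS into the peritoneum, while the 14 libraries labelled 0 hr and control (5 brain, 4 lung and 5 heart) share the genotype and the tamoxifen. The labels do not state which libraries came from the same mouse, and the p-values measure the spread between these libraries only.

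ECs line the blood vessels of every organ and share genes for junctions, adhesion and growth factor signalling. Brain ECs add the transporters and tight junctions of the blood-brain barrier, which are kept up by Wnt signalling through Lef1/Tcf factors. Lung ECs line the capillaries of the air spaces and clear prostaglandins and amines from the blood, and heart ECs take up fatty acids from lipoproteins and hand them on to muscle. Lists of genes known for these tasks or as markers of the tissue are used here, with 30 genes for brain, 24 for lung and 24 for heart. Members were chosen with earlier results of these data known. Counts of members called thus describe the lists and are not an independent test of identity.

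Levels are given as log2 CPM (counts per 1000000 reads on genes) with a prior count of 2, a scale on which a gene without reads lies at -3.27. Levels and summed CPM use library sizes multiplied by edgeR's TMM factor, so that a factor below 1 raises them. At 48 hr these factors ran from 0.237 in lung replicate 1 to 1.46 in brain replicate 2. Counts on genes ran from 8953798 to 32303620 in brain, from 6710885 to 19468463 in lung and from 8161033 to 31293546 in heart. Before this scaling 3 counts, the floor used here, stand for 0.0929 to 0.447 CPM. Some libraries stood apart from the rest. Lung replicates 1 and 2 had 9.27% and 13.0% of reads on genes, against up to 44.4% in the other lung libraries, and 7 genes at the ribosomal RNA locus took 70.7% and 31.3% of their counts, against 2.44% to 5.67% in the other lung libraries and at most 0.423% in brain and heart. Lung replicate 4 was closer to the heart libraries (mean Spearman rho across genes 0.875) than to the other lung libraries (0.828). In each tissue replicates 3, 6 and 7 resembled each other more than they resembled replicates 1, 2 and 4. Among themselves rho was 0.978 to 0.987 in brain, 0.961 to 0.973 in lung and 0.981 to 0.987 in heart. To the others it was 0.828 to 0.931, 0.798 to 0.870 and 0.932 to 0.946. Among replicates 1, 2 and 4 it was 0.847 to 0.982, 0.775 to 0.866 and 0.980 to 0.993. Replicate 4 of brain and of lung had a higher rho to each of replicates 3, 6 and 7 than to 1 or 2. Replicates 1, 2 and 4 are thus the remaining libraries and not a close group in brain and lung. The set of replicates 3, 6 and 7 follows no label of the series. It held the higher summed levels of the 19 acute-phase and STAT3 genes described below. These were 39414 to 47848 CPM in brain, 26071 to 30698 CPM in lung and 23749 to 26575 CPM in heart. Replicates 1, 2 and 4 had 1802 to 12866, 3500 to 6104 and 2237 to 6347 CPM. At 0 hr the sums were 685 to 1036, 1104 to 1673 and 594 to 800 CPM. Results over all 6 libraries pool these levels. By library series, technical sets read from the names of the count files, replicates 3 and 4 are series 1, replicates 1 and 2 series 2, and replicates 6 and 7 series 4. The sets of replicates thus overlap in part with the library series, a covariate of the fits. All results were therefore also fitted on each of the 2 sets of replicates and without lung replicates 1 and 2. Every library but lung replicates 4 and 6 had a higher rho to each library of its own tissue than to any other library.

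The endothelial label was checked with Cdh5, the adherens junction cadherin whose promoter drives Cre, and with Pecam1 (CD31), an adhesion molecule of the same junctions. Cdh5 lay at 7.81, 8.67 and 8.99 in brain (lowest, median and highest library), at 7.99, 8.70 and 11.09 in lung and at 10.23, 10.72 and 10.88 in heart. Pecam1 lay at 8.37, 8.62 and 9.35 in brain, at 9.89, 10.51 and 11.52 in lung and at 10.78, 11.56 and 11.90 in heart. Both were far above the floor in all 18 libraries. Cdh5 overlapped between brain and lung and was 1.80 higher in heart than in the mean of the others on the log2 scale (SE 0.32, edgeR adjusted p = 0.000155), while for Pecam1 every brain library lay below every lung and heart library. Of 20 pan-endothelial genes, 13 were lower and 0 higher in brain, 5 higher and 4 lower in lung, and 14 higher and 2 lower in heart. In bulk samples fewer ECs, less RNA per EC and a larger background of RNA from untagged cells cannot be told apart.

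Markers of the surrounding cells were present in the pull-downs and moved with the tissue. The summed level of 12 neuron markers was 1095 to 5149 CPM in brain and at most 205 CPM elsewhere, and that of 7 astrocyte markers was 727 to 4389.5 CPM in brain and at most 80.8 CPM elsewhere. The 12 cardiomyocyte markers summed to 3688 to 7162 CPM in heart and at most 707 CPM elsewhere, while 10 alveolar epithelial markers summed to 1640.5 to 8831 CPM in lung and at most 811 CPM elsewhere. The 10 neutrophil markers summed to 699.7 to 5002 CPM in lung, 49.5 to 184 CPM in brain and 14.1 to 50.0 CPM in heart. Among the markers that could be tested, 12 of 12 neuron and 7 of 7 astrocyte genes were higher in brain, 12 of 12 cardiomyocyte genes in heart, and 8 of 8 alveolar and 9 of 9 neutrophil genes in lung. The authors report that ECs themselves express genes typical of the surrounding tissue. Whether the reads of these markers came from ECs or from other cells was not tested, nor was their part in the results below.

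**Figure D1:**
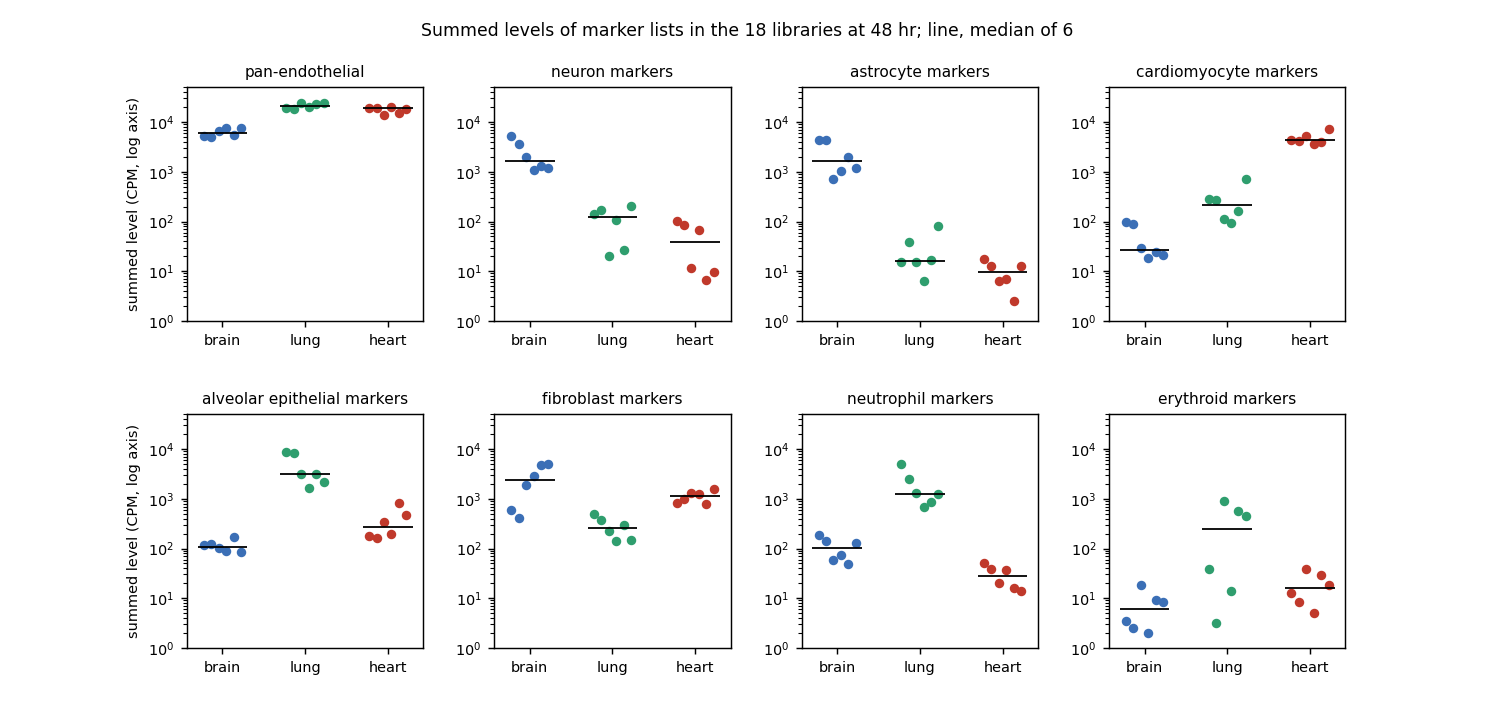
Summed CPM (log axis) of 8 lists of marker genes in each 48 hr library, by tissue, with a line at the median of 6 libraries. Neuron and astrocyte markers are highest in brain, cardiomyocyte markers in heart, and alveolar epithelial and neutrophil markers in lung, while the pan-endothelial list is lowest in brain (5018 to 7566 CPM).

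For 16681 genes each tissue was then set against the average of the remaining 2, with edgeR's quasi-likelihood test and a Benjamini-Hochberg adjusted p below 0.05 as the call. In brain 4447 genes (26.7%) were higher and 2686 (16.1%) lower, in lung 3718 (22.3%) were higher and 4466 (26.8%) lower, and in heart 3385 (20.3%) were higher and 4302 (25.8%) lower. Over all genes the log2 fold change had a median of 0.22 for brain, -0.28 for lung and -0.02 for heart, and the lists are read against these values. A stricter call, above each of the other 2 tissues, was met by 2484 genes (14.9%) in brain, 2214 (13.3%) in lung and 1230 (7.37%) in heart. Every library of a tissue lay above every library of the other 2 for 1640 genes (9.83%) in brain, 714 (4.28%) in lung and 678 (4.06%) in heart. Within library series, genes higher in brain, lung and heart numbered 1495, 275 and 221 in series 1, 5904, 3263 and 3686 in series 2, and 5372, 4587 and 4153 in series 4, with 2 libraries per tissue in each. Series 1 held 1 library of each set of replicates per tissue (replicates 3 and 4).

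Of the 30 blood-brain barrier genes, 26 were higher in brain at 48 hr and 0 were lower, with a median log2 fold change of 4.02. Above each of the other 2 tissues were 21, and for 18 every brain library exceeded every other library. The count of higher genes was 26 with replicates 1, 2 and 4, 25 with replicates 3, 6 and 7, and 25 without lung replicates 1 and 2. The 4 genes that did not pass were Abcg2 and Slc6a6, at log2 fold changes of 0.17 and 0.16, Slc7a1 at 0.50 and the junction protein gene Cgn at 1.25. At the other end, the list had the 3 solute carriers Slco1a4, Slc22a8 and Slco1c1 with fold changes of over 8 on the log2 scale.

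**Figure D2:**
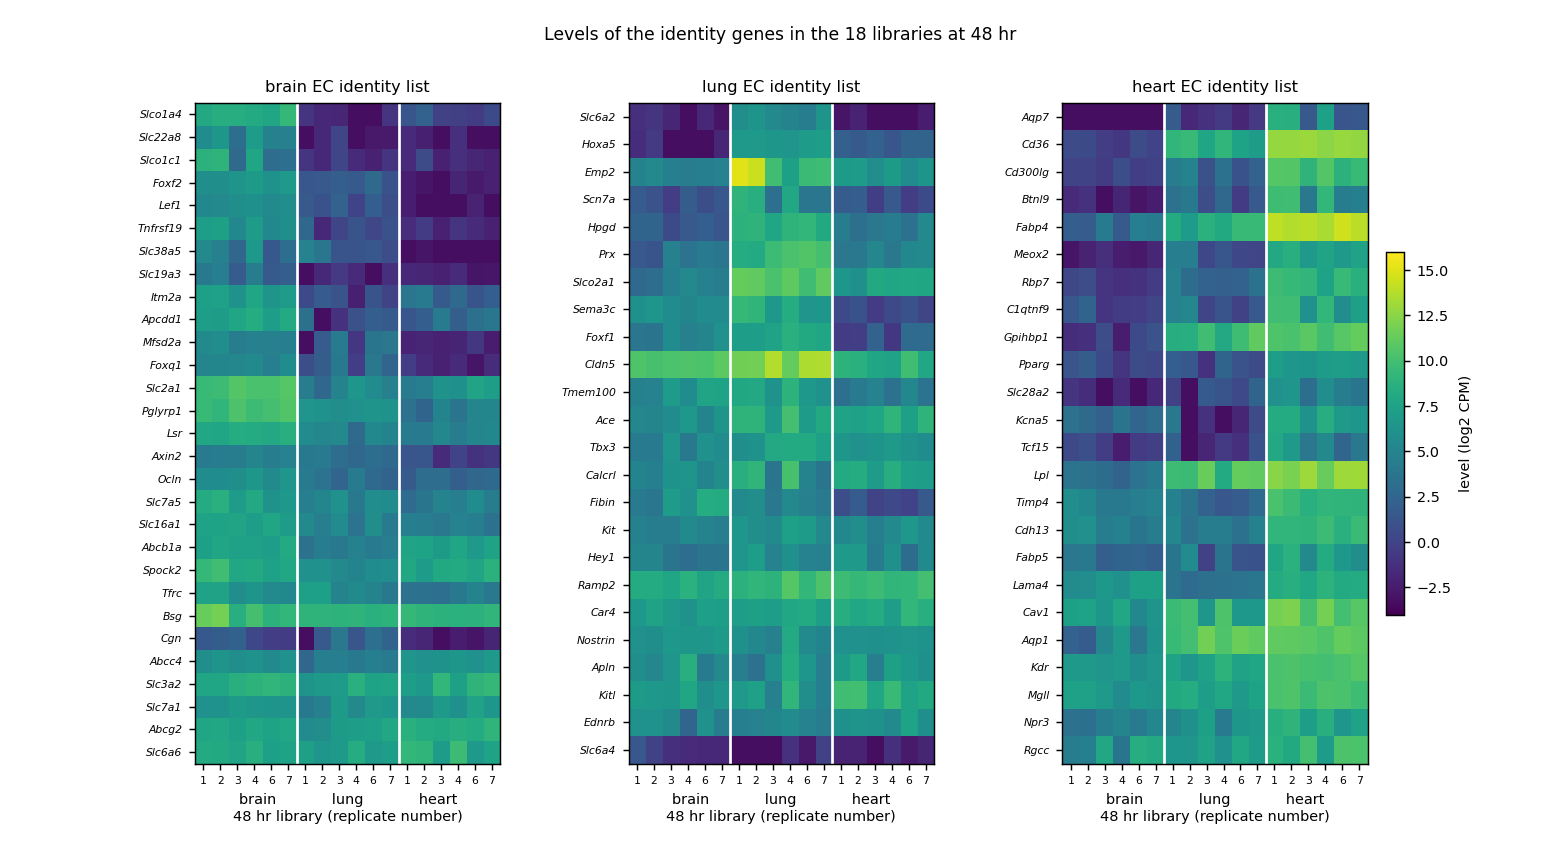
Heat map of log2 CPM in the 18 libraries at 48 hr (columns, by tissue) for the genes of the brain (all but 1), lung and heart EC identity lists (rows), with the colour scale from -4 to 16. Most genes of the brain list are brightest in the 6 brain columns and most of the heart list in the 6 heart columns, while several genes of the lung list, such as Apln, Nostrin and Ednrb, are as bright in brain or heart.

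Glucose reaches the brain through Slc2a1 (GLUT1), the transporter of the barrier, which lay at 9.55, 10.25 and 10.75 in brain, at 2.79, 4.81 and 6.54 in lung and at 4.33, 6.16 and 7.71 in heart. No library of lung or heart reached the lowest brain library, and the log2 fold change was 4.77 (SE 0.35, edgeR adjusted p = 3.54e-09). Slc16a1 (MCT1), which carries lactate and ketone bodies, lay at 6.99 to 7.83 in brain, 3.60 to 5.92 in lung and 3.50 to 4.86 in heart and was 2.86 higher (SE 0.29, edgeR adjusted p = 1.58e-07). Slc7a5 (LAT1), the carrier of large neutral amino acids, was 2.91 higher (SE 0.44, edgeR adjusted p = 1.96e-05), with brain levels of 6.23, 7.52 and 8.72 against at most 6.11 in lung and 5.70 in heart. For this gene the difference was 4.18 with replicates 1, 2 and 4 and 1.18 with replicates 3, 6 and 7, and both passed. Its partner chain Slc3a2 was 0.75 higher (SE 0.27, edgeR adjusted p = 0.0329), a call that was lost in 8 of 18 fits without a single library.

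The organic anion carriers split into one that was alike in all brain libraries and a pair that was not. Slco1a4 lay at 7.87, 8.34 and 9.31 in brain, at -0.93 or below in lung and at 2.27 or below in heart, a log2 fold change of 9.58 (SE 0.46, edgeR adjusted p = 5.72e-11). Slco1c1 (OATP1C1), the carrier of the thyroid hormone thyroxine, lay at 8.86, 8.98 and 7.81 in brain replicates 1, 2 and 4 and at 2.93, 3.14 and 3.27 in replicates 3, 6 and 7, against at most 0.16 in lung and 0.61 in heart. Every brain library was above every other library, and the log2 fold change was 8.09 over all libraries (SE 0.68, edgeR adjusted p = 1.7e-08), 9.86 with replicates 1, 2 and 4 and 5.17 with replicates 3, 6 and 7. Slc22a8 (OAT3), an exporter of organic anions, lay at 5.70, 6.57 and 7.02 in the first of these sets and at 3.24, 4.81 and 4.70 in the other. Mfsd2a, the carrier of lysophosphatidylcholine with docosahexaenoic acid, lay at 4.50, 4.76 and 5.77 in brain and did not exceed -0.77 in heart. Its levels in lung were uneven, at -3.27, 1.72 and -0.84 in replicates 1, 2 and 4 and at 4.32, 3.76 and 3.94 in replicates 3, 6 and 7. The difference of Mfsd2a was accordingly 6.62 with the first set and 3.60 with the second. In all, 13 of the 30 list genes had the brain replicates 3, 6 and 7 all below replicates 1, 2 and 4, and 1 (Pglyrp1) had them all above, beside 3713 and 3570 of the 16681 genes.

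In bulk levels the ATP-driven efflux pumps, which keep drugs out of the brain, did not set brain above heart. The ranges of Abcb1a and Abcc4 overlapped, and Abcg2 was higher in each heart library. The pan-endothelial sum was lower in brain as well, at 5018 to 7566 CPM against 14028 to 20587 CPM in heart. Levels per EC were not measured. Abcb1a (P-glycoprotein) lay at 7.14, 7.44 and 8.20 in brain and at 6.84, 7.59 and 7.79 in heart, with 3.53 to 4.77 in lung. It was higher in brain than in the mean of the others (log2 fold change 1.83, SE 0.21, edgeR adjusted p = 8.87e-07) but not above heart, whose libraries overlapped those of brain. Abcg2 lay at 7.34 to 7.99 in brain and 8.17 to 9.07 in heart, so that each heart library was above each brain library. Abcc4 was 0.81 higher in brain than in the mean of the others (SE 0.24, edgeR adjusted p = 0.00935), with brain at 5.57 to 6.39, heart at 6.11 to 6.86 and lung at 2.59 to 4.67. It missed the threshold with either set of replicates, at 1.06 and 0.47 (edgeR adjusted p = 0.0579 and 0.0724).

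Of the transcription factors and Wnt targets of the barrier, Lef1, Foxf2, Foxq1 and Tnfrsf19 had every brain library above all others, and Axin2 did not. Lef1, a nuclear partner of beta-catenin, lay at 5.33, 5.68 and 6.05 in brain, at 0.02 to 2.27 in lung and at -2.05 or below in heart (log2 fold change 7.24, SE 0.45, edgeR adjusted p = 5.26e-10). Foxf2, a forkhead factor needed for the barrier, lay at 5.98, 6.30 and 6.92 in brain, 1.03 to 2.88 in lung and -1.89 or below in heart (7.37, SE 0.31, edgeR adjusted p = 1.34e-11). Tnfrsf19, a Wnt-induced receptor of the TNF family, lay at 5.34, 6.48 and 7.39 in brain and at most at 2.69 in lung (6.96, SE 0.42, edgeR adjusted p = 4.12e-10). Axin2, the feedback inhibitor that Wnt signalling induces, was 3.16 higher in brain (SE 0.36, edgeR adjusted p = 6.11e-07), but its brain range of 4.17 to 5.09 overlapped the lung range of 2.76 to 4.30. The heart range of Axin2 was -1.52 to 1.32.

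Because Lef1/Tcf factors bind the letters CTTTGA, RefSeq promoter windows of 300 bases, 250 before and 50 after each gene start on GRCm38.p6, were searched for them on both strands. A match was found in 9 of the 24 brain list genes that have a window (37.5%), in 3 of 18 lung list genes (16.7%), in 1 of 16 heart list genes (6.25%) and in 4911 of all 27025 genes (18.2%). The forkhead letters TGTTTAC were found in 1, 0 and 1 of these genes and in 1095 of all genes (4.05%). Such a match is a description of the letters and not a site. Stretches of 126 bases around the CTTTGA match, which is in capitals, are shown as examples of the 9 genes, for the transporter gene Mfsd2a, for Spock2, which codes for a matrix proteoglycan, and for Lsr, which codes for a receptor at tricellular junctions. The Mfsd2a stretch is chr4:122961238-122961363 on the minus strand, the Spock2 stretch chr10:60106064-60106189 on the plus strand and the Lsr stretch chr7:30973570-30973695 on the minus strand, and the match begins 115, 133 and 166 bases before the start.
Mfsd2a: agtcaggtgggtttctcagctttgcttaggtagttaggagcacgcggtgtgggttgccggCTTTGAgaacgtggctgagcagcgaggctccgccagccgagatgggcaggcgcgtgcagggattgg
Spock2: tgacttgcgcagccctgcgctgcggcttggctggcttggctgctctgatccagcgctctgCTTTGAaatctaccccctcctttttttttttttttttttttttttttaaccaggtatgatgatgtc
Lsr: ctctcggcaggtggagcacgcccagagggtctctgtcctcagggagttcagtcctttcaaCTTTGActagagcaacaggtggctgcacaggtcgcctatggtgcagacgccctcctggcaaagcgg

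At the junctions, Ocln (occludin) lay at 5.61, 5.86 and 6.61 in brain, 2.36 to 4.29 in lung and 1.64 to 3.18 in heart, a log2 fold change of 3.12 (SE 0.31, edgeR adjusted p = 1.14e-07). Lsr was 3.32 higher (SE 0.28, edgeR adjusted p = 1.89e-08), with 7.76, 8.19 and 8.60 in brain, at most 5.68 in lung and at most 5.31 in heart. Neither gene overlapped between brain and the other tissues. Spock2 behaved differently, with 7.45, 8.04 and 9.83 in brain and 7.08, 8.10 and 8.74 in heart, which overlapped throughout, and 5.06 to 6.11 in lung. Pglyrp1, a secreted protein that binds bacterial peptidoglycan, lay at 9.18, 9.88 and 10.55 in brain, 5.91 to 6.45 in lung and 2.42 to 5.21 in heart, with a log2 fold change of 4.71 (SE 0.29, edgeR adjusted p = 6.42e-10). Exons of Slc2a1, Abcb1a, Slc6a6, Lef1, Foxf2, Foxq1, Axin2 and Lsr here, and of Foxf1, Tbx3, Slco2a1, Prx, Ace, Fabp3, Timp4, Adh1, Hadha, Selp, Gbp2, Bmp4, Pla2g7, Ccna2, Cdc20, Myh6 and Gapdh below, overlap a gene on the other strand, and as the strand setting of the counts is not given in the sources used here, reads of such pairs cannot be told apart.

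**Figure D3:**
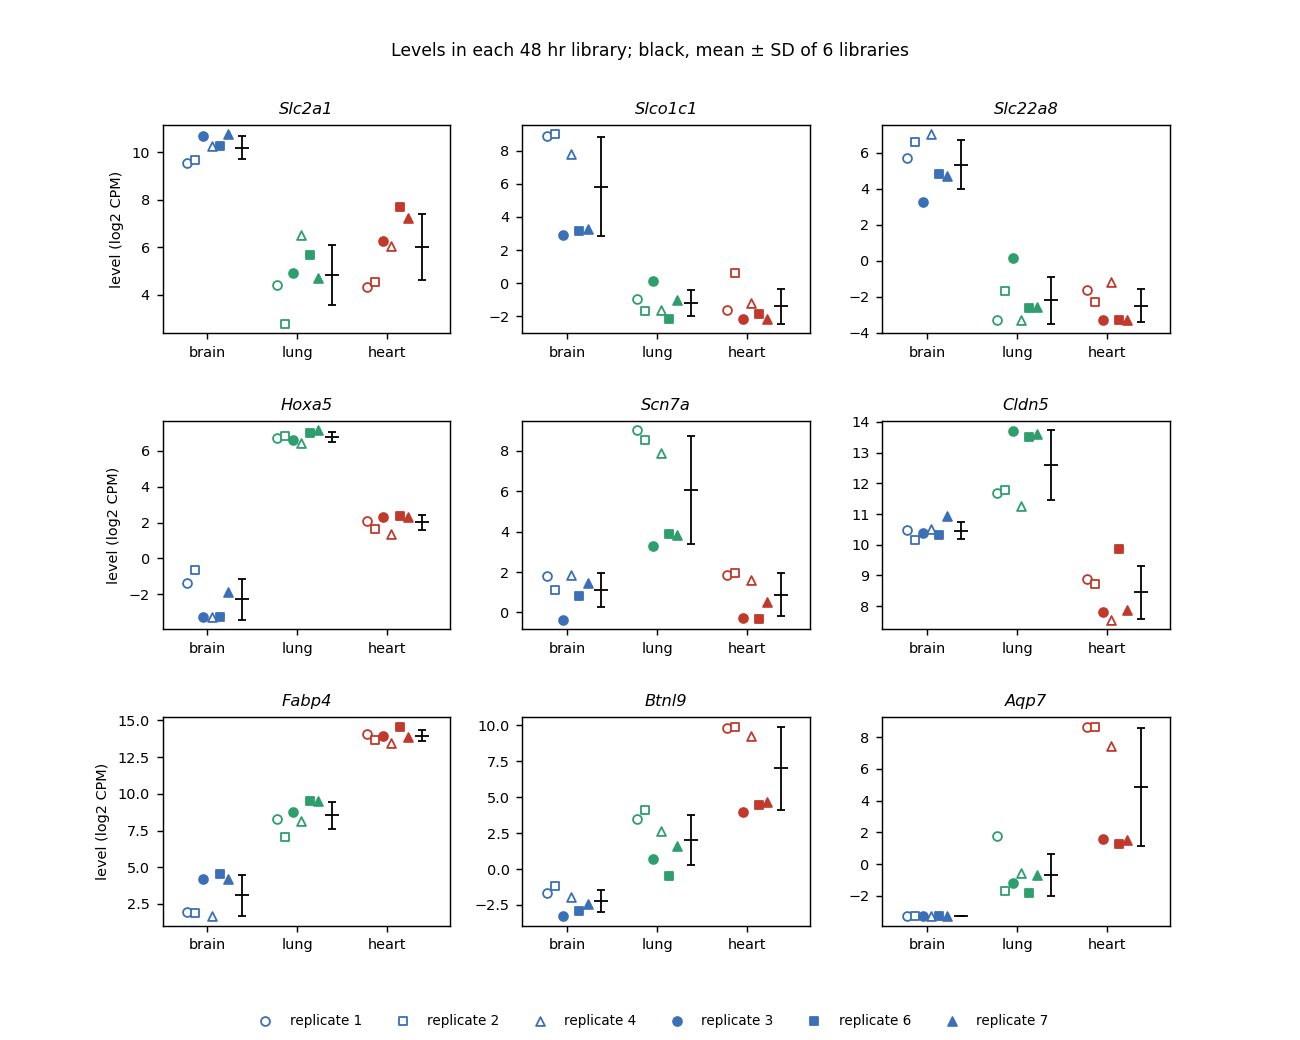
Level in log2 CPM of 9 identity genes in every 48 hr library, by tissue, with replicates 1, 2 and 4 as open and replicates 3, 6 and 7 as filled points and the mean ± SD of 6 libraries in black. Slc2a1, Hoxa5 and Fabp4 are alike in both sets of their own tissue, whereas Slco1c1 in brain, Scn7a in lung and Btnl9 and Aqp7 in heart are far lower in replicates 3, 6 and 7.

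The 8 genes with the largest fold changes among those with a mean level of at least 5 and complete separation of brain were Ptgds, Apod, Spp1, Myo5a, Mal, Ackr1, Slc2a1 and Pglyrp1. Ptgds, the synthase of prostaglandin D2, which is also made by the leptomeninges and choroid plexus, lay at 12.34, 13.48 and 14.55 in brain, at most 6.86 in lung and at most 4.85 in heart (log2 fold change 9.11, SE 0.62, edgeR adjusted p = 1.78e-09). Apod, a lipocalin that carries lipids, was 7.29 higher and Spp1 (osteopontin), a secreted phosphoprotein, 7.15 higher. Mal, a proteolipid of myelin, and Myo5a, a myosin motor, were 5.18 and 5.52 higher. Oligodendrocyte markers summed to 564 to 3141 CPM in brain and at most 166 CPM elsewhere, and choroid plexus markers to 108 to 393 CPM and at most 27.5 CPM. The 5 fibroblast markers, all higher in brain than in the mean of the others, summed to 420 to 5093 CPM in brain, 143 to 502 CPM in lung and 791 to 1567 CPM in heart. The part of these cells in the 8 genes was not tested. Ackr1, the chemokine-binding receptor of venules, lay at 7.40, 10.60 and 11.28 in brain, 1.97 to 6.08 in lung and 4.48 to 6.37 in heart (4.91, SE 0.34, edgeR adjusted p = 1.97e-09). At 0 hr its brain libraries had been at 3.93 to 5.87, and those of lung and heart at 1.07 or below.

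A smaller share of the lung list was called. Of the 23 lung list genes that could be tested, 16 were higher in lung and 0 lower, with a median log2 fold change of 1.72. Above each of the other 2 tissues were 11, and for 9 every lung library exceeded all others. The call count moved little without lung replicates 1 and 2 (15 higher, 0 lower) or with replicates 1, 2 and 4 (17 and 0), but with replicates 3, 6 and 7 it was 11 higher and 4 lower, with a median of 0.85. Slc6a4, the serotonin transporter, was too low to be tested. Genes that did not pass were Car4, Ednrb, Fibin, Kitl, Apln, Calcrl and Nostrin.

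The transcription factors Foxf1, Hoxa5 and Tbx3 were called in lung with each set of replicates. Foxf1, a forkhead factor of lung mesenchyme and capillaries, lay at 7.22, 7.71 and 8.68 in lung, 3.69 to 6.12 in brain and -0.73 to 3.02 in heart (log2 fold change 4.67, SE 0.38, edgeR adjusted p = 2.61e-08). Hoxa5, a homeobox factor of the lung field, lay at 6.42, 6.76 and 7.14 in lung, at -0.63 or below in brain and at 1.37 to 2.34 in heart. It was 7.00 higher in lung (SE 0.43, edgeR adjusted p = 4.76e-10), 6.76 with replicates 1, 2 and 4 and 7.60 with replicates 3, 6 and 7. Tbx3, a T-box repressor, was 1.47 higher (SE 0.32, edgeR adjusted p = 0.00101), but lung replicates 1 and 2, at 5.99 and 6.26, lay within the heart range of 5.69 to 6.84. Its relatives Tbx2 and Tbx4 were 5.03 and 4.98 higher in lung. Tbx5 had no read in brain and was at 2.28 to 5.30 in lung and 1.89 to 3.22 in heart.

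Prostaglandin clearance was the metabolic side of the lung list. Slco2a1, the prostaglandin importer, lay at 9.89, 11.06 and 11.29 in lung, 2.81 to 5.40 in brain and 6.08 to 8.18 in heart (log2 fold change 5.09, SE 0.36, edgeR adjusted p = 4.18e-09). Hpgd, the dehydrogenase that inactivates prostaglandins, lay at 7.73, 8.92 and 9.27 in lung, 0.53 to 2.45 in brain and 3.41 to 5.45 in heart (5.64, SE 0.33, edgeR adjusted p = 2.73e-10). Slc6a2, the noradrenaline transporter, was at 4.45, 5.66 and 6.38 in lung and at -0.97 or below elsewhere (9.14, SE 0.50, edgeR adjusted p = 1.29e-10). For all 3 genes the lung libraries lay above every brain and heart library, and they kept the call with each set of replicates.

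Membrane and junction genes were higher in lung as well. Prx (periaxin), a scaffold protein of lung capillary ECs, lay at 8.22, 9.88 and 10.55 in lung, 1.20 to 4.69 in brain and 3.95 to 5.42 in heart (log2 fold change 5.45, SE 0.28, edgeR adjusted p = 8.66e-11). Cldn5, the claudin of endothelial tight junctions, was higher in lung than in brain, at 11.25, 12.64 and 13.71 against 10.17, 10.42 and 10.94, with heart at 7.55 to 9.85 (3.22, SE 0.39, edgeR adjusted p = 2.26e-06). The pan-endothelial sum, which includes Cldn5, was likewise higher in lung (18532 to 24760 CPM) than in brain (5018 to 7566 CPM), and levels per EC were not measured. Emp2, a tetraspan membrane protein, lay at 15.07 and 14.41 in lung replicates 1 and 2 and at 7.33 to 9.87 in the other 4, against 5.75 to 7.07 in heart. Its log2 fold change was 5.89 over all libraries, 7.76 with replicates 1, 2 and 4 and 4.36 with replicates 3, 6 and 7. Of the 8 genes with the largest lung fold changes among those with a mean level of at least 5 and complete separation of lung, 6 were Gm23935, Mir6236, Gm26917, Gm42418, Gm24601 and Gm15564, which lie with the ribosomal RNA genes or copies of them, and the others were Lars2, at 17.57 and 15.89 in lung replicates 1 and 2 and 11.46 to 12.74 in the rest, and Emp2. Lars2 and Emp2 were highest in the libraries with the highest ribosomal RNA share. Beyond fits without lung replicates 1 and 2 and without the ribosomal RNA locus genes, the part of this share in the other lung results was not tested.

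Several genes with known lung capillary expression differed widely between the sets of replicates. Scn7a, a sodium channel, lay at 9.00, 8.51 and 7.91 in lung replicates 1, 2 and 4 and at 3.28, 3.86 and 3.82 in replicates 3, 6 and 7, yet even the lowest was above the brain and heart maxima of 1.87 and 1.97. Calcrl, the receptor chain for adrenomedullin and calcitonin gene-related peptide, lay at 8.65, 9.11 and 10.20 in the first lung set and at 3.73, 4.92 and 3.81 in the second. It was 1.22 higher in lung over all libraries without passing (SE 0.69, edgeR adjusted p = 0.148), 2.50 higher with replicates 1, 2 and 4 and lower with replicates 3, 6 and 7 (-2.28), and both of these passed (edgeR adjusted p = 0.000574 and 0.000327). Tmem100, a membrane protein downstream of BMP signalling, and Ace, the angiotensin-converting enzyme, were 2.33 and 1.72 higher over all libraries (edgeR adjusted p = 0.000984 and 0.00225), but 0.16 and 0.32 with replicates 3, 6 and 7 (edgeR adjusted p = 0.674 and 0.51). Car4, a membrane carbonic anhydrase of capillary ECs that sense growth factor from the alveoli, did not separate lung at 48 hr, with 7.12, 7.32 and 8.20 in lung, 6.31 to 7.49 in brain and 7.24 to 9.25 in heart. Of the 23 tested genes, 8 had lung replicates 3, 6 and 7 all below replicates 1, 2 and 4 and 1 had them above, beside 2161 and 3091 of 16681 genes.

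The heart list was the most complete, with 24 of 24 genes higher in heart and a median log2 fold change of 5.62. Above each of the other tissues were 23, all but Aqp1, and for 16 every heart library exceeded all others. All 24 were called with replicates 1, 2 and 4, with replicates 3, 6 and 7 and without lung replicates 1 and 2, at medians of 5.64, 5.48 and 5.57.

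Fatty acid handling led this list. Fabp4, the lipid-binding protein of capillary ECs, lay at 13.48, 13.93 and 14.59 in heart, 7.07 to 9.52 in lung and 1.67 to 4.54 in brain (log2 fold change 8.06, SE 0.45, edgeR adjusted p = 3.25e-10). Cd36, the fatty acid translocase, lay at 12.52, 12.83 and 13.01 in heart, 7.08 to 9.58 in lung and -0.76 to 0.58 in brain (8.51, SE 0.39, edgeR adjusted p = 1.84e-11). For both genes the gap to the next tissue was larger than the spread within heart. Lpl (lipoprotein lipase), which frees fatty acids from triglycerides, lay at 11.35, 12.77 and 13.17 in heart, 8.21 to 11.34 in lung and at most 4.13 in brain, so that the lowest heart library was just above the highest of lung. Gpihbp1, which anchors the lipase to the vessel wall, was 6.10 higher (SE 0.41, edgeR adjusted p = 3.58e-09) with a heart range of 9.87 to 11.28 that overlapped the lung range of 8.05 to 11.09. Fabp5 was 4.39 higher, and Fabp3, the muscle form of these lipid-binding proteins, 3.72 higher. Pparg, the nuclear receptor that drives many of these genes, lay at 6.37, 6.85 and 7.22 in heart, -1.18 to 2.47 in lung and -0.98 to 1.87 in brain (5.81, SE 0.38, edgeR adjusted p = 2.33e-09).

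Of 19 tested genes of fatty acid uptake and use, 13 were higher and 1 lower in heart, 4 higher and 9 lower in lung, and 1 higher and 10 lower in brain, with medians of 1.61, -0.38 and -0.84. Acadm and Hadha, enzymes of fatty acid oxidation, were 1.93 and 1.61 higher in heart (edgeR adjusted p = 3.87e-05 and 6.59e-05). The exception in heart was Slc27a4, a fatty acid transporter that was 1.95 higher in lung, and the gene higher in brain was its relative Slc27a1, at 2.10. Muscle cells use the same enzymes, and the cardiomyocyte markers, Myh6 at 9.02 to 11.27 among them, were measured in every heart library, so their part in the oxidation enzymes was not tested.

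The homeobox factor Meox2 and its heterodimer partner Tcf15, which together drive fatty acid uptake genes in heart ECs, marked heart as well. Meox2 lay at 6.70, 7.58 and 8.56 in heart, 0.18 to 4.57 in lung and -1.19 or below in brain (log2 fold change 8.02, SE 0.53, edgeR adjusted p = 2.33e-09). Tcf15 lay at 8.07, 6.73 and 5.41 in heart replicates 1, 2 and 4 and at 3.90, 2.55 and 4.00 in replicates 3, 6 and 7, against at most 2.25 in lung. Each heart library of both genes was above all others. Of 27 organ-restricted transcription factors, 11 were higher and 11 lower in heart, 9 and 6 in lung, and 9 and 15 in brain. The cardiac factors Gata4, Nkx2-5 and Tbx20, known from heart muscle and endocardium, were at 3.85 to 4.53, 2.09 to 3.00 and 2.61 to 4.39 in heart, while Gata4 and Nkx2-5 had no read in brain.

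Vessel surface genes of the heart list differed in level between the sets of replicates. Btnl9, a butyrophilin-like membrane protein, lay at 9.77, 9.87 and 9.25 in heart replicates 1, 2 and 4 and at 3.97, 4.47 and 4.67 in replicates 3, 6 and 7, against at most 4.08 in lung and -1.18 in brain. Its log2 fold change was 8.17 over all libraries (SE 0.64, edgeR adjusted p = 2.11e-08), 8.87 with the first set and 6.18 with the second. Aqp7, the water and glycerol channel, lay at 8.67, 8.63 and 7.41 in the first set and between 1.29 and 1.61 in the second, and lung replicate 1 (1.80) was above the latter. Aqp7 had no read in any brain library, so that its heart mean of 163 CPM was at least 8552-fold higher than brain by the floor of 3 counts over 6 libraries. Aqp1, the main water channel of capillaries, was 3.28 higher than the mean of the others (SE 0.49, edgeR adjusted p = 2.67e-05) but lay at 10.52 to 11.26 in heart and 9.50 to 11.74 in lung. Of the 24 genes, 13 had heart replicates 3, 6 and 7 all below replicates 1, 2 and 4 and 3 (Gpihbp1, Lpl and Rgcc) all above, beside 4565 and 4082 of 16681 genes.

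Kdr, the main receptor for vascular endothelial growth factor, was evenly higher in heart, at 10.06, 10.27 and 10.72 against 6.51 to 8.91 in lung and 5.95 to 6.77 in brain (log2 fold change 3.15, SE 0.26, edgeR adjusted p = 2.78e-08). Rbp7, a retinol-binding protein, lay at 7.57, 9.27 and 9.69 in heart, at most 4.89 in lung and at most 0.70 in brain (7.82, SE 0.33, edgeR adjusted p = 1.08e-11). Timp4, an inhibitor of matrix metalloproteinases, was 5.42 higher. By the same limits, a mean level of at least 5 and complete separation, the 8 genes with the largest heart fold changes included Ankrd1 (9.55) and Tnnt2 (6.64), a stress-induced nuclear protein and a troponin of cardiac muscle, beside Cd36, Fabp4, Lpl, Cyp4b1, Timp4 and Adh1. Cyp4b1, a cytochrome P450 of fatty acid hydroxylation, and Adh1, an alcohol and retinol dehydrogenase, were 5.49 and 5.07 higher.

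Inflammatory genes were compared between the tissues as well. Of 19 acute-phase and STAT3 genes, 7 were higher and 5 lower in brain, 4 and 5 in lung, and 5 and 7 in heart. Over all genes the shares higher and lower were 26.7% and 16.1% in brain, 22.3% and 26.8% in lung, and 20.3% and 25.8% in heart. The list counts lay near these shares, most closely in lung, so the list as a whole did not set lung apart by its counts. Lcn2 (lipocalin 2), which binds bacterial siderophores, lay at 9.88, 8.21 and 12.92 in brain replicates 1, 2 and 4 and at 14.60, 14.43 and 14.67 in replicates 3, 6 and 7, and at 7.92 to 11.20 in lung. It was lower in lung over all libraries (-2.48, SE 0.53, edgeR adjusted p = 0.000775), a call not reached with replicates 1, 2 and 4 (-1.29, edgeR adjusted p = 0.0903). Lung instead was higher in Hp (haptoglobin), at 7.98 to 9.17 against at most 6.46 elsewhere (4.15, SE 0.34, edgeR adjusted p = 2.7e-08), in Saa3, an acute-phase apolipoprotein (2.45), and in the complement component C3 (1.86). In brain replicates 3, 6 and 7, 15 of the 19 genes were all above replicates 1, 2 and 4, in lung 13 and in heart 14. By the same criterion 3570 (brain), 3091 (lung) and 4082 (heart) of the 16681 tested genes were above. The opposite order was found for 0, 1 and 0 genes of the list, beside 3713, 2161 and 4565 of the 16681.

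Adhesion molecules and chemokines that recruit leukocytes were lowest in lung, with 0 higher and 10 lower of 16, against 6 higher and 1 lower in brain and 7 higher and 2 lower in heart. In the fit of 0 hr and 48 hr libraries described below, the list median at the 2 times was -1.45 and 0.83 in brain. It was 0.28 and -1.66 in lung and 1.05 and 0.96 in heart. The count in brain was 1 higher and 4 lower with replicates 1, 2 and 4, and 9 and 1 with replicates 3, 6 and 7. Selp (P-selectin), which catches rolling leukocytes, lay at 5.89, 8.76 and 9.24 in heart, 2.57 to 8.63 in brain and -3.27 to 6.73 in lung, and was higher in heart (2.61, SE 0.46, edgeR adjusted p = 0.00015). In lung replicate 2 it had no read. Cxcl1, a neutrophil chemokine, was 2.96 higher in brain (SE 0.59, edgeR adjusted p = 0.000386), with 5.65, 3.90 and 8.52 in replicates 1, 2 and 4 and 10.98, 10.08 and 11.44 in replicates 3, 6 and 7. Without the latter it was 0.95 (edgeR adjusted p = 0.351).

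Interferon-stimulated genes were mostly higher in heart, where 15 of 20 were higher and 0 lower, at a median of 1.59, while 11 were lower in lung and 4 in brain. The heart difference was there at 0 hr as well, with medians of 1.70 at 0 hr and 1.63 at 48 hr in the fit of both times. A change of the heart difference was called for 0 of the 20, beside 0.162% larger and 0.281% smaller over all genes. With so few calls at all, this count does not show that the difference was unchanged. Gbp2 and Gbp5, guanylate-binding proteins that act against intracellular microbes, were 2.09 and 2.21 higher in heart (edgeR adjusted p = 6.46e-05 and 0.000125). The heart counts were 14 with replicates 1, 2 and 4 and 13 with replicates 3, 6 and 7. Antigen presentation divided by class. All 6 tested genes of MHC class II were higher in lung and 4 were lower in brain and in heart, whereas of 9 class I genes 7 were higher in heart, 5 in lung and 8 lower in brain. For class II the lung median was 3.45 at 0 hr and 3.77 at 48 hr in the fit of both times. Of these genes 0 were called as changed, beside 0.907% larger and 0.568% smaller over all genes in lung, so this count too shows little. H2-Ab1, a class II chain, lay at 6.50, 7.32 and 8.20 in lung, 1.49 to 3.41 in brain and 2.56 to 5.38 in heart (log2 fold change 4.06, SE 0.35, edgeR adjusted p = 4.01e-08), and B2m, the light chain of class I, was 2.30 higher in heart. Macrophage and microglia markers, cells that also carry class II, summed to 268 to 2618 CPM in lung, 70.9 to 397 CPM in brain and 13.1 to 123 CPM in heart, and their part was not tested.

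Glycolysis gave no clear division by tissue. Of 17 genes, 6 were higher and 2 lower in brain, 0 and 5 in lung, and 5 and 1 in heart, and the heart count was 2 with replicates 1, 2 and 4 and 14 with replicates 3, 6 and 7. Aldoc, the aldolase of astrocytes and neurons, was 8.66 higher in brain, and Pfkfb3, the kinase that speeds up glycolysis, was 1.75 higher in heart (SE 0.39, edgeR adjusted p = 0.00114). Gapdh and Pgam1, called in brain, have near-identical processed copies in the genome, and as reads aligned to several places were not counted, their values are uncertain.

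To compare identity at 48 hr with that at 0 hr, all 32 libraries of both times were fitted together. Marker sums differed between the times. In brain the medians at 0 hr and 48 hr were 6111 and 1642 CPM for neuron and 4281 and 757 CPM for oligodendrocyte markers. They were 1744 and 1615 CPM for astrocyte markers and 4445 and 6065 CPM for pan-endothelial genes. The library ranges of these lists overlapped between the times. The part of these shifts in any change from 0 hr was not tested. Over 19184 genes Pearson's r between the tissue differences at the 2 times stood at 0.930 (brain), 0.810 (lung) and 0.909 (heart), a description across genes, which are not independent replicates. Of genes higher at 0 hr, 4921 of 6044 were also higher at 48 hr in brain (81.4%), 3832 of 4724 in lung (81.1%) and 3276 of 4466 in heart (73.4%). The shared genes made up 85.7% of the 5742 genes higher at 48 hr in this fit for brain, 78.3% of 4895 for lung and 77.9% of 4203 for heart. A change of the difference itself was called for few genes. The brain difference was larger for 40 genes (0.209%) and smaller for 71 (0.37%), the lung difference larger for 174 (0.907%) and smaller for 109 (0.568%), and the heart difference larger for 31 (0.162%) and smaller for 54 (0.281%). Without lung 0 hr replicate 4 the lung counts were 1018 and 335, and without lung 0 hr replicate 3 they were 29 and 41. A fit that took replicate numbers as blocks, in place of the library series, gave 31 and 30 in brain, 66 and 54 in lung, and 18 and 41 in heart. They also moved with the sets of replicates, to 7 and 5, 412 and 432, and 19 and 30 with replicates 1, 2 and 4 at 48 hr, and to 601 and 897, 1202 and 641, and 247 and 378 with replicates 3, 6 and 7.

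**Figure D4:**
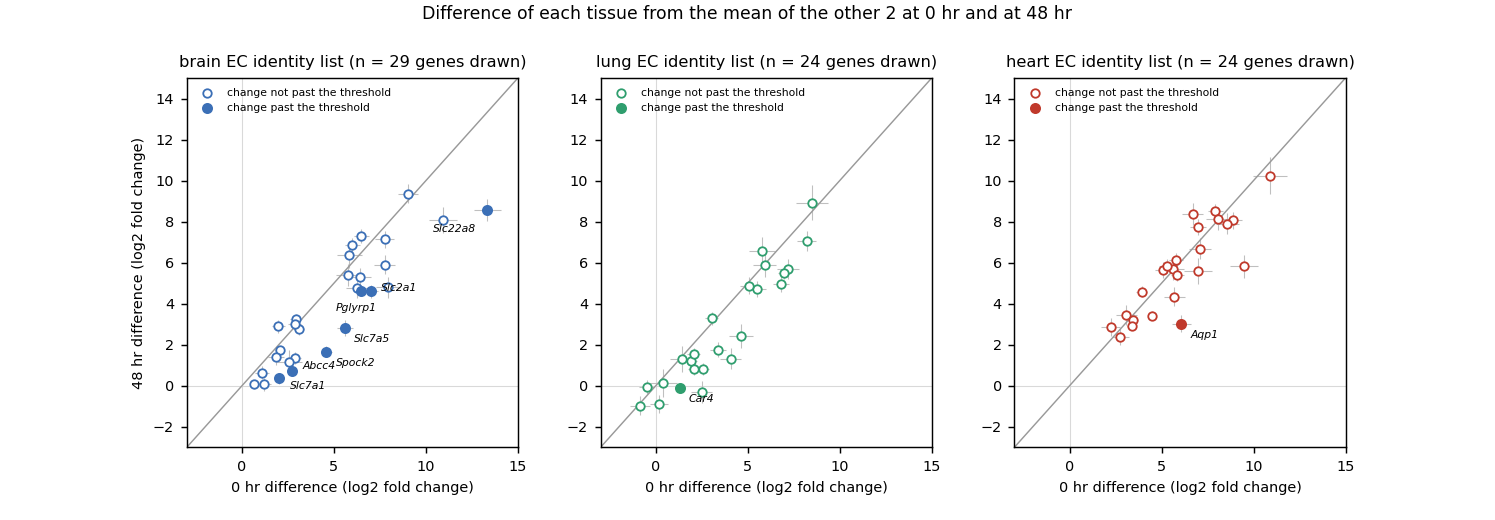
Log2 fold change of the brain (all but 1), lung and heart list genes in their own tissue at 0 hr (horizontal) and 48 hr (vertical) from the fit of both times, with the line of equality and filled points where the change passed the threshold (7 brain, 1 lung and 1 heart gene). The median change is -0.88 for the brain, -0.94 for the lung and -0.30 for the heart list, and the fitted values of Aqp7 and Slc22a8 depend on the prior because a group had no reads.

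Among the 30 barrier genes the brain difference was smaller at 48 hr for 7 and larger for 0, with a median change of -0.88 against -0.07 over all genes. These were Slc2a1, Abcc4, Slc7a5, Slc7a1, Slc22a8, Spock2 and Pglyrp1. Some list members were known to be high in brain at 0 hr, and the part of that choice in the smaller differences was not tested. With the replicate block 4 were called, with replicates 1, 2 and 4 alone 0, and with replicates 3, 6 and 7 alone 9 smaller and 1 larger. For Slc2a1 the brain level was 9.99 to 11.12 at 0 hr and 9.55 to 10.75 at 48 hr, while the highest lung library was at 3.78 and then 6.54 and the highest heart library at 4.88 and then 7.71. The difference of 6.99 at 0 hr and 4.61 at 48 hr in this fit (change -2.38, SE 0.47, edgeR adjusted p = 0.0119) thus stood beside brain ranges that overlapped and higher medians in lung and heart. With the replicate block the change of Slc2a1 was -2.25 and did not pass (edgeR adjusted p = 0.0547).

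The brain levels themselves were lower for Slc7a5, at 9.03 to 9.69 at 0 hr and 6.23 to 8.72 at 48 hr (change of the difference -2.79, SE 0.56, edgeR adjusted p = 0.0131). Spock2 had the steepest change of the called barrier genes with reads in every group (-2.94, SE 0.41, edgeR adjusted p = 0.000251), with brain at 10.38 to 11.02 and then 7.45 to 9.83 and heart at 6.07 to 7.17 and then 7.08 to 8.74. Without replicates 3, 6 and 7 at 48 hr neither passed, at -1.44 and -2.21 (edgeR adjusted p = 0.335 and 0.064). Slc22a8, which had no read in the 0 hr lung libraries, lay at 7.75 to 9.40 in brain at 0 hr and at 3.24 to 7.02 at 48 hr, without overlap. Mfsd2a did not pass (-3.15, SE 0.84, edgeR adjusted p = 0.0783), with brain at 6.58 to 7.23 at 0 hr and 4.50 to 5.77 at 48 hr. Pla2g7, a phospholipase that inactivates platelet-activating factor, went from a brain difference of 3.86 to 0.88, as lung lay at 1.58 to 3.29 at 0 hr and at 5.62 to 6.84 at 48 hr (change -2.98, edgeR adjusted p = 0.00015).

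In lung the only list gene called was Car4, whose lung level was 8.53 to 9.91 at 0 hr and 7.12 to 8.20 at 48 hr (change of the difference -1.39, SE 0.35, edgeR adjusted p = 0.0392). The block gave -1.30 without passing (edgeR adjusted p = 0.0961). With replicates 3, 6 and 7 alone 11 of the 24 were smaller, with replicates 1, 2 and 4 alone 1. Apln, the apelin peptide, was at 7.46 to 9.25 in lung at 0 hr and 3.42 to 8.39 at 48 hr, a change of the difference of -2.80 that did not pass (SE 0.81, edgeR adjusted p = 0.0735). Of the acute-phase list 4 genes had a smaller lung difference, C3, Hp, Saa3 and Lcn2. C3 lay between 6.24 and 8.07 in lung at 0 hr and between 7.72 and 9.63 at 48 hr, while in brain it was at most 1.76 at 0 hr and at least 5.17 at 48 hr.

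In heart the only list gene called was Aqp1, at 12.37 to 13.16 at 0 hr and 10.52 to 11.26 at 48 hr, while brain went from at most 3.19 to as much as 6.75 (change of the difference -3.05, SE 0.66, edgeR adjusted p = 0.0295). With the block it was -2.72 and did not pass (edgeR adjusted p = 0.0946). Fabp4, Cd36, Lpl, Kdr and Pparg gave changes between -0.83 and 0.60, none past the threshold. Bmp4, a bone morphogenetic protein, went the other way in heart (4.05, SE 0.69, edgeR adjusted p = 0.00943), at 5.57 to 6.32 at 0 hr, 6.14, 5.96 and 5.77 in replicates 1, 2 and 4 at 48 hr and 8.96, 8.40 and 9.46 in replicates 3, 6 and 7. With the first set alone its change was 2.44 and did not pass (edgeR adjusted p = 0.163). Of 15 cell cycle genes, 5 had a smaller heart difference at 48 hr (Mki67, Top2a, Ccna2, Birc5 and Cdc20), with a median change of -2.97 over the list against -0.05 over all genes, and 3 did so with the block. The median summed level of this list was 552 CPM in heart at 0 hr and 256 CPM at 48 hr. In the other tissues it was higher at 48 hr, at 42.8 and then 128 CPM in brain and 209 and then 288 CPM in lung.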

How the data were processed

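Endothelial ribosome-bound RNA of brain, lung and heart was sequenced on the HiSeq 4000. The authors aligned reads to mm10 with STAR 2.4.2 and deposited read counts per gene from HTSeq 0.6.1, 1 file per sequencing run. The strand setting and annotation release are not given in the sources used here. Here 217 runs were summed to 98 libraries, and 52403 of 52550 gene IDs matched a symbol. Rows that name no gene stayed out of library sizes and tests: in the 32 libraries fitted, 2.57% to 23.9% of reads lay outside genes and 26.8% to 68.8% were not uniquely aligned. Depth differed between libraries, and the counting floor covers counting error only.

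Libraries were grouped by the tissue, time and replicate in the labels. edgeR 4.0.16 in R 4.3.3 (TMM scaling, filterByExpr, quasi-likelihood F test, Benjamini-Hochberg adjusted p below 0.05) compared each tissue with the mean of the other 2, with library series as covariate. A fit of 0 hr and 48 hr libraries gave the change of each difference. DESeq2 1.42.0, limma-voom (limma 3.58.1), other scaling and filters, a replicate block and left-out libraries were alternatives, and 4 more (lung without replicates 1 and 2, the 2 sets of replicates, and removal of ribosomal RNA locus genes) were chosen after seeing the data. The fits were tested on simulated data.

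Named genes are members of 29 lists, the 8 largest differences per tissue with a mean level of at least 5 and complete separation, and the 5 largest changes per tissue and direction at that level. Members and lists were chosen with earlier results of these data known. The list counts include 1 brain list gene whose own values are not reported here. At 48 hr the deviations of same-numbered libraries of different tissues correlated at 0.0727 to 0.571 (median 0.365, 17 of 18 over 0.1), but with the series mean also removed 8 of 18 did (median -0.0359), and at 0 hr 2 of 9 pairs of the same series and 0 of 4 others did. The labels do not tie the numbers to mice. Codes in the names of the count files match across tissues within a number at 48 hr, which may mean a shared mouse, and at 0 hr between brain and heart but not lung. As no source says so, the numbers were not used for pairing in the reported fit. Gene positions and overlaps came from GENCODE vM21 on GRCm38, and promoters from RefSeq on GRCm38.p6.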

Additional observations from a re-analysis of the deposited data

Results flagged for a closer look

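In 5 of 165 groups of 6 libraries 1 library stood apart, by a gap to its neighbour over 0.625 of the range, which chance gives in about 1 of 20 groups. Slco1c1 was 0.61 in heart replicate 2 against -1.20 in the next library, Mfsd2a -0.77 in heart replicate 6 against -1.85, and Lsr 2.95 in lung replicate 4 against 5.01. Aqp7 was 1.80 in lung replicate 1 against -0.58, and Tnnt2 10.67 in heart replicate 7 against 9.87.

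The brain difference, on the log2 scale, was smaller at 48 hr than at 0 hr for Slc2a1 (-2.38, SE 0.47), Abcc4 (-1.98, SE 0.34), Slc7a5 (-2.79, SE 0.56), Slc7a1 (-1.64, SE 0.38), Slc22a8 (-4.77, SE 1.14), Spock2 (-2.94, SE 0.41), Pglyrp1 (-1.83, SE 0.40), Pla2g7 (-2.98, SE 0.39), Gprc5b (-2.83, SE 0.53) and S100a8 (-2.69, SE 0.57), with edgeR adjusted p from 0.00015 to 0.0466. It was larger for Cxcl1 (4.88, SE 1.07), Rpap3 (2.85, SE 0.57), Cd14 (2.32, SE 0.53) and Lama4 (1.32, SE 0.32), with edgeR adjusted p from 0.0127 to 0.0465. The lung difference, on the log2 scale, was smaller at 48 hr than at 0 hr for Car4 (-1.39, SE 0.35), Lcn2 (-3.78, SE 0.94), Saa3 (-3.77, SE 0.78), Serpina3f (-3.72, SE 0.79), C3 (-2.97, SE 0.64) and Hp (-2.94, SE 0.56), with edgeR adjusted p from 0.00625 to 0.0392. It was larger for Pla2g7 (3.42, SE 0.44), Lactb (2.62, SE 0.40), Pofut2 (2.48, SE 0.44), Zbtb24 (2.31, SE 0.47) and Phf20 (1.81, SE 0.36), with edgeR adjusted p from 0.000142 to 0.0104. The heart difference, on the log2 scale, was smaller at 48 hr than at 0 hr for Aqp1 (-3.05, SE 0.66), Odc1 (-2.49, SE 0.56), Tubb6 (-2.49, SE 0.52) and Ddx39 (-1.59, SE 0.37), with edgeR adjusted p from 0.0234 to 0.0443. It was larger for Bmp4 (4.05, SE 0.69), Spock2 (2.91, SE 0.42), Ankrd1 (2.91, SE 0.65), Serpina3g (2.88, SE 0.44) and Pgf (2.50, SE 0.54), with edgeR adjusted p from 0.00156 to 0.0341. With the replicate number as block all 34 changes kept their direction, but 13 no longer passed (edgeR adjusted p from 0.0508 to 0.111), which were Slc2a1, Slc7a1, Slc22a8, S100a8, Cxcl1, Rpap3, Cd14 and Lama4 in brain, Car4 and Lcn2 in lung, and Aqp1, Ankrd1 and Ddx39 in heart. These interaction terms rest on the counts that moved most between settings, and the fitted change of Slc22a8 depends on the prior count.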

How the results depend on the processing

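Genes higher and lower at 48 hr numbered 4447 and 2686 in brain, 3718 and 4466 in lung and 3385 and 4302 in heart. Of 102 such counts under other settings 83 were within 1.5 times these and 19 were not. Counts moved when library series 1 was fitted alone, to 1495 and 203 in brain, 275 and 93 in lung and 221 and 129 in heart, and when a gene had to differ from each of the other tissues, to 2484 and 967 in brain, 2214 and 2349 in lung and 1230 and 2057 in heart. Replicates 1, 2 and 4 alone gave 2997 and 1697 in brain, 2283 and 1806 in lung and 1950 and 2229 in heart, and replicates 3, 6 and 7 alone 6163 and 3829 in brain, 5065 and 5873 in lung and 5112 and 5101 in heart. Without a filter on low counts there were 7008 and 2694 in brain, 4808 and 5210 in lung and 3728 and 5425 in heart. DESeq2 gave 5114 and 3054 in brain, 4221 and 5100 in lung and 3347 and 5259 in heart and limma-voom 5046 and 2766 in brain, 3554 and 6074 in lung and 3963 and 4413 in heart. All 108 counts without a single library were within 1.5 times, with 3910 to 5616 and 2312 to 3284 in brain, 3315 to 4151 and 3853 to 5461 in lung, and 2903 to 4348 and 3932 to 4893 in heart. With the replicate block in place of library series they were 4765 and 2839 in brain, 3734 and 5011 in lung and 3729 and 4411 in heart, all within 1.5 times. Among the named genes Calcrl in lung changed sign past the threshold, from 1.22 to -1.97 in library series 4 alone and -2.28 with replicates 3, 6 and 7, and 28 values of 10 genes not called in the reported fit changed sign without passing. Of 1401 values of named genes at 48 hr, 1296 kept their direction and side of the threshold.

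Counts of genes whose difference was larger and smaller at 48 hr than at 0 hr were far less stable, and 50 of 72 moved. The replicate block gave 31 and 30 in brain, 66 and 54 in lung and 18 and 41 in heart, and omitting the library series 18 and 26 in brain, 86 and 56 in lung and 16 and 25 in heart. Library series 1 and 2 alone gave 9 and 11 in brain, 47 and 35 in lung and 8 and 13 in heart, and all libraries, the low ones included, 32 and 140 in brain, 514 and 91 in lung and 25 and 108 in heart. DESeq2 gave 145 and 214 in brain, 563 and 314 in lung and 94 and 197 in heart, limma-voom 29 and 73 in brain, 110 and 93 in lung and 25 and 52 in heart, and no filter on low counts 185 and 461 in brain, 663 and 293 in lung and 138 and 256 in heart. Replicates 1, 2 and 4 at 48 hr gave 7 and 5 in brain, 412 and 432 in lung and 19 and 30 in heart, replicates 3, 6 and 7 601 and 897 in brain, 1202 and 641 in lung and 247 and 378 in heart, lung without replicates 1 and 2 100 and 133 in brain, 363 and 214 in lung and 44 and 123 in heart, and removal of the ribosomal RNA locus genes 46 and 43 in brain, 149 and 121 in lung and 25 and 58 in heart. Leaving out a single library gave 17 to 81 and 25 to 165 in brain, 29 to 1018 and 41 to 335 in lung, and 12 to 39 and 19 to 119 in heart, and 65 of 192 counts moved by over 1.5 times. Both lung maxima came without lung 0 hr replicate 4 and both minima without lung 0 hr replicate 3. The cause of these shifts was not tested. The 0 hr lung depth, from 3666859 counts on genes, limits low genes the most.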
